A study of Mus musculus with 6 samples.

Results

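Glyctk encodes glycerate kinase, and it is described here beside 5 enzymes of the reactions around it: Khk, Grhpr, Hao1, Agxt and Hoga1. These 6 genes, of 22180 measured, were taken by symbol, each from a probe set (the group of probes that reads a gene) that the platform annotation pairs with that symbol alone. Each of the 6 genes had 1 such probe set. Glyctk was picked because it was higher with GW4064 on these arrays. Its difference between treatments is therefore a description with no test, whereas the other 5 were chosen by function. The cells were primary hepatocytes of wild type adult male C57Bl/6 mice, held without serum in William's medium. For 4 h, 3 cultures received 2 µM GW4064, a nonsteroidal compound that activates FXR, the nuclear receptor for bile acids, and 3 received only the solvent DMSO. The design names 3 independent preparations, without saying how many mice gave each or whether the array numbers mark them. Both groups share strain, sex and culture, and the comparison asks which transcripts differ with the agonist.

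Glycerate kinase phosphorylates glycerate to phosphoglycerate, which enters lower glycolysis or gluconeogenesis. Glycerate comes from fructose, whose breakdown starts with ketohexokinase and passes through glyceraldehyde, and from serine by way of hydroxypyruvate. Glyoxylate is the neighbouring branch. It is made from glycolate in the peroxisome and from hydroxyproline in mitochondria, and the liver removes it as glycine or glycolate before it becomes oxalate. Inherited loss of AGXT, GRHPR or HOGA1 causes primary hyperoxaluria in humans, and loss of GLYCTK causes D-glyceric aciduria.

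The 6 arrays gave log2 intensities from 0.94 to 13.07, with array medians within 0.053 of each other. Over all 22180 genes the median log2 change was -0.02, and 55.4% of genes lay below 0. Levels of different probe sets are not comparable, so each gene is compared only with itself. RNA from a culture cannot tell fewer cells of a type from less RNA per cell. Hepatocyte markers (9 measured, Alb and Ttr among them) lay between 4.84 and 12.88 on the log2 scale. No marker of any of the 6 cell types was called among 42 measured, and 2 had an unadjusted p under 0.05, a share of 4.76% against 5.66% of all genes. With the replicate number as a block (same-numbered arrays compared with each other) 0 were called and 6 had an unadjusted p under 0.05, 14.3% against 9.13%. The 2 without the block were Hnf4a, a hepatocyte transcription factor (log2 change 0.55, limma adjusted p = 0.393), and Sox9, a bile duct cell factor (0.45, adjusted p = 0.858). The block added the hepatocyte markers Serpina1a (-0.25) and Tat (-0.21) and the endothelial markers Tek (-0.27) and Pecam1 (0.27). Hepatocyte markers other than Hnf4a mostly lay below 0. Of all 9, 2 were above 0 and 7 below, and the median log2 change was -0.09. Among them 4 were lower in all 3 pairs, as were 18.6% of all genes. Their summed log2 level ran from 89.6 to 90.2 with DMSO and from 89.2 to 90.0 with GW4064. Markers of cell types other than hepatocytes numbered 33, with 18 above 0. In the bile duct cell list 4 of 5 markers lay above 0. Its summed log2 level ran from 21.9 to 22.5 with DMSO and from 22.0 to 23.0 with GW4064. The part of these markers in the results below was not tested.

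Glyctk (probe set 17530623) was higher with GW4064 on every array. Its log2 levels with DMSO were 7.20, 7.06 and 6.96 in replicates 1, 2 and 3, and with GW4064 they were 8.31, 8.21 and 7.84. The groups did not overlap, and the lowest GW4064 array lay 0.64 above the highest DMSO array. The mean log2 level went from 7.07 ± 0.12 to 8.12 ± 0.25 (SD, n = 3 arrays each), a ratio of 2.06. In same-numbered pairs 1, 2 and 3 the log2 difference was 1.11, 1.15 and 0.88. Such a gap between groups, in the higher direction, was found in 4.58% of all genes, and 12.6% were higher in all 3 pairs. By size of increase Glyctk was the 12th of the 22180 genes.

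**Figure D1:**
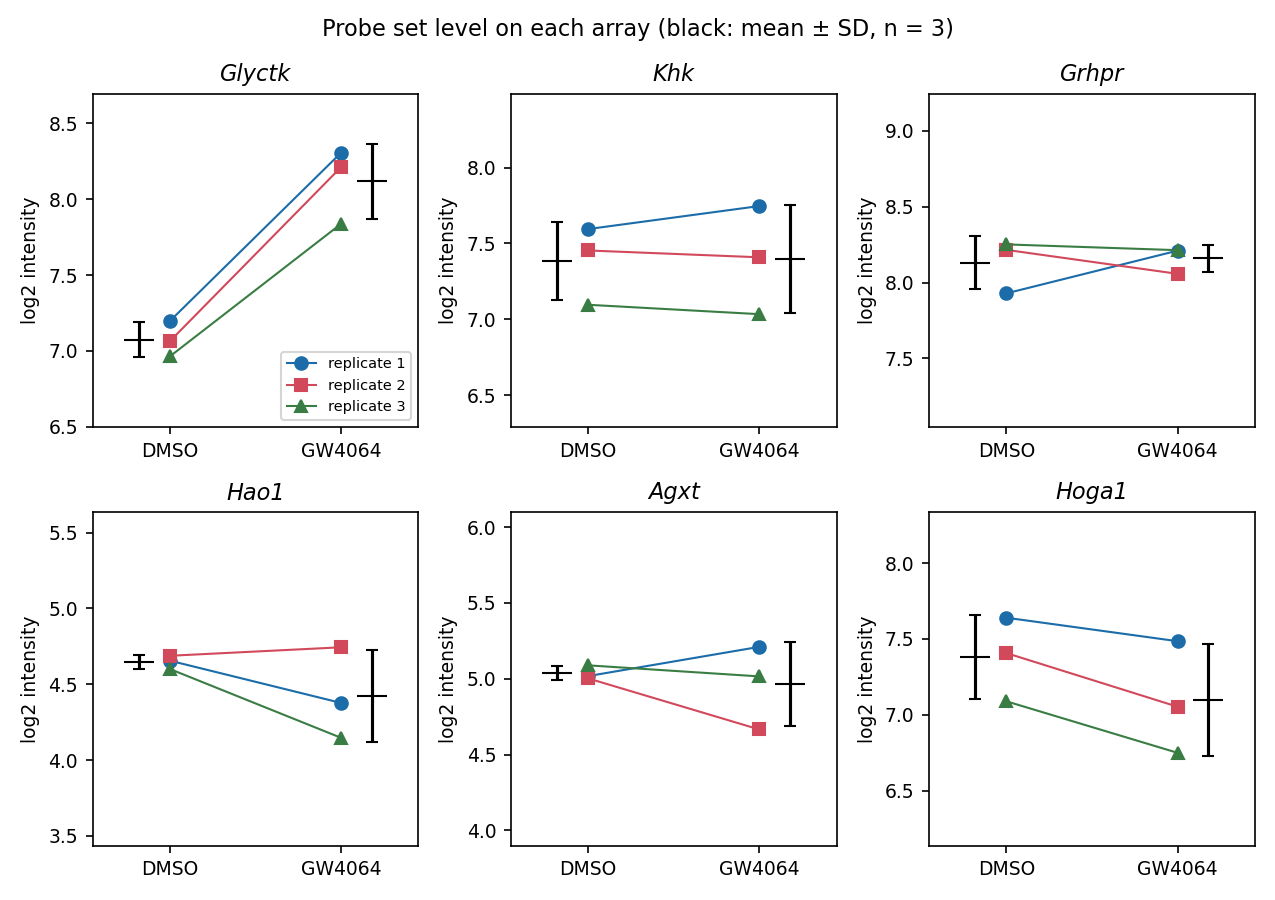
Log2 intensity of the 6 enzyme genes on each array, with lines joining arrays of the same replicate number and black bars giving mean ± SD (n = 3). Every panel spans the same log2 distance. Glyctk went from 7.07 to 8.12, while the DMSO and GW4064 values of the other 5 overlapped.

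The stretch just upstream of a Glyctk start site is shown because the gene was picked for its response to a nuclear receptor agonist. It is the RefSeq sequence of GRCm38.p6 at chr9:106158139-106158388, minus strand, and its last base lies next to the start. Nuclear receptors bind the hexamer AGGTCA, which reads as TGACCT on the opposite strand, and FXR is known for a pair of inverted hexamers with 1 base between them, AGGTCANTGACCT, called IR-1. Capitals mark the exact hexamer:
Glyctk: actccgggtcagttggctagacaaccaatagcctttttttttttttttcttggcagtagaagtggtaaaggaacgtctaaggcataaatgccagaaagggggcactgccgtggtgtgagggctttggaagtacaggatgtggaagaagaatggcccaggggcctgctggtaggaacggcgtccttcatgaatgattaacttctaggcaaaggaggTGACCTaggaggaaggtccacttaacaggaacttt

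This window held 1 exact hexamer, with its first base at -35 counted from the start site, and the windows of the other 5 genes held 0. An exact hexamer on either strand was present in 14% of all 32851 RefSeq promoters over the same 250 bases. For IR-1, searched on both strands, a closest stretch in the Glyctk window is set beside that of Abcb11, the bile salt exporter gene and a known FXR target. Among stretches with equally few mismatches, the one furthest from the start site is shown. Capitals mark letters that match IR-1, and the middle base may be any:
Glyctk: gGGTCAGTtggCT
Abcb11: AGGcCATTGACCT

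The Glyctk stretch differed from IR-1 at 4 letters and the Abcb11 stretch at 1. The window of Nr0b2, another known FXR target, had 4 mismatches at best and 0 exact hexamers. Up to 4 mismatches were found in 50% of all promoters, and up to 1 in 0.0791%. Among the other enzymes, Hoga1 and Khk also had 4 mismatches at best, and Grhpr, Hao1 and Agxt had 5. A match is only a run of letters, and sequence beyond these 250 bases was not searched.

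None of the other 5 enzymes was called at a limma adjusted p under 0.05, and none had an unadjusted p under 0.05. With the replicate number as a block, 0 were called and 1 (Hoga1) had an unadjusted p under 0.05. Over all 22180 genes limma called 11 higher (0.0496%) and 0 lower (0%). Before adjustment, 577 higher genes (2.6%) and 678 lower genes (3.06%) were under 0.05. With the replicate block limma called 16 higher (0.0721%) and 2 lower (0.00902%), 0.0812% in all. Before adjustment, the block put 4.01% of genes higher and 5.12% lower. Trend and robust moderation called 14 higher (0.0631%) and 3 lower (0.0135%), 0.0766% in all. The log2 changes of the 5 ran from -0.28 to 0.03, against 1.05 for Glyctk. No same-numbered pair of any of the 5 differed by more than 0.28 upwards or 0.45 downwards.

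**Figure D2:**
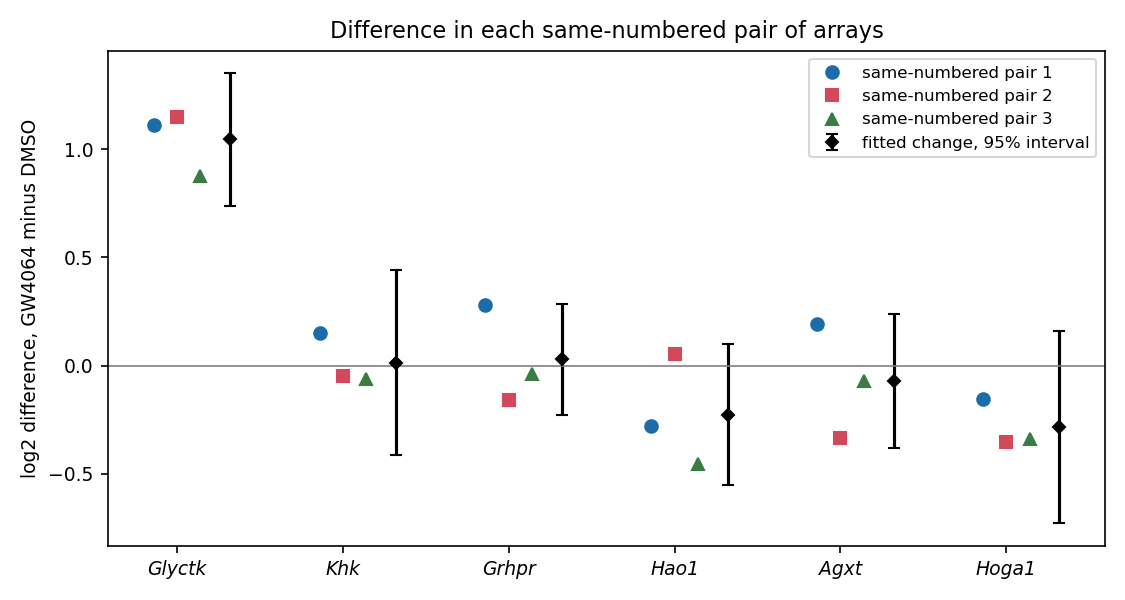
Log2 difference between GW4064 and DMSO in same-numbered pairs 1, 2 and 3 for each enzyme gene, with the limma change and its 95% interval in black. The 3 Glyctk differences lie at 0.88 to 1.15, and those of the other genes at -0.45 to 0.28.

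Khk encodes ketohexokinase, which phosphorylates fructose in the first step towards glyceraldehyde. Its log2 levels were 7.59, 7.45 and 7.10 with DMSO and 7.75, 7.41 and 7.03 with GW4064. The groups overlapped, with GW4064 replicate 1 above the DMSO range, replicate 2 inside it and replicate 3 below it. The fold was 1.01 with a 95% interval of 0.751 to 1.36 (limma adjusted p = 0.999). The pair differences were 0.15, -0.05 and -0.06. The sign of its change turned when DMSO replicate 3 (-0.13), GW4064 replicate 1 (-0.16) or pair 1 (-0.05) was left out.

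Grhpr encodes the reductase that turns glyoxylate into glycolate and hydroxypyruvate into glycerate, and so makes the substrate of glycerate kinase. It read 7.93, 8.22 and 8.25 with DMSO and 8.21, 8.06 and 8.21 with GW4064, all within the DMSO range. The fold was 1.02 (95% interval 0.853 to 1.22, limma adjusted p = 0.998). Only pair 1 was higher with GW4064, by 0.28, and pairs 2 and 3 gave -0.16 and -0.04. Without DMSO replicate 1 the change was -0.07, and without pair 1 it was -0.10.

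Hao1, the peroxisomal glycolate oxidase gene that makes glyoxylate, had log2 levels of 4.66, 4.69 and 4.60 with DMSO. With GW4064 they were 4.38, 4.74 and 4.15. Replicates 1 and 3 lay below all DMSO arrays and replicate 2 above them. The fold was 0.855 (95% interval 0.682 to 1.07, limma adjusted p = 0.961). Without GW4064 replicate 2 its log2 change was -0.39, and without GW4064 replicate 3 it was -0.09.

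Agxt encodes the aminotransferase that converts glyoxylate to glycine. Its log2 levels were 5.017, 5.002 and 5.088 with DMSO and 5.210, 4.665 and 5.015 with GW4064. GW4064 replicate 1 lay above the narrow DMSO range, replicate 2 below it and replicate 3 inside it. The fold was 0.951 (95% interval 0.768 to 1.18, limma adjusted p = 0.998). The log2 change of -0.07 became 0.08 without GW4064 replicate 2 and 0.06 without pair 2.

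Hoga1 encodes the mitochondrial aldolase that releases glyoxylate in hydroxyproline breakdown. It was the 1 member lower in all 3 pairs, by -0.15, -0.35 and -0.34, where 18.6% of all genes were lower in all 3. Its log2 levels were 7.64, 7.41 and 7.09 with DMSO and 7.48, 7.05 and 6.75 with GW4064, so the groups overlapped. The fold was 0.822 (95% interval 0.604 to 1.12, limma adjusted p = 0.963). Its log2 change was -0.48 without GW4064 replicate 1, -0.43 without DMSO replicate 3, -0.15 without DMSO replicate 1 and -0.11 without GW4064 replicate 3. With the replicate block the log2 change of -0.28 had an interval of -0.49 to -0.08, and the adjusted p over all genes was 0.426. At an unadjusted p under 0.05 that blocked fit holds 9.13% of all genes.

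Among the 5 folds, in the fit without the replicate block, the upper bound of the 95% interval was highest for Khk, at 1.36. The lower bound was lowest for Hoga1, at 0.604. With the block the log2 intervals were -0.19 to 0.22 for Khk, -0.23 to 0.28 for Grhpr, -0.50 to 0.05 for Hao1 and -0.349 to 0.205 for Agxt. The highest upper bound was then that of Grhpr, and the lowest lower bound that of Hao1. A rise in measured intensity as large as the 2.06-fold difference seen in Glyctk thus lay outside each of the 5 intervals in either fit. For Hao1 and Agxt the mean log2 levels, 4.536 and 4.999, were not far above the median level of all genes, 4.197. No array has a detection value, so whether these 2 probe sets could show such a rise in RNA was not tested. The difference between Glyctk and each of the other 5 enzymes was not tested, since Glyctk was picked for its own.

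The enzymes were also compared between replicate numbers, a comparison that the choice of Glyctk did not use. For Hoga1, Khk and Glyctk, replicate 1 was the highest and replicate 3 the lowest in both groups. The mean of both treatments spanned 0.64 between replicate numbers for Hoga1, 0.61 for Khk and 0.35 for Glyctk on the log2 scale. For Grhpr, Hao1 and Agxt the span was 0.16, 0.34 and 0.28. In limma's F test of the replicate number, 3 of the 6 had an unadjusted p under 0.05 (14.8% of all genes did). None passed after adjustment over all genes (1.07% did). The smallest adjusted p was 0.103, for Hoga1, followed by 0.119 for Khk and 0.327 for Glyctk. Once each group's mean was removed, the deviations of Hoga1 and Khk over the 6 arrays had a Pearson r of 0.99. Those of Glyctk had 0.94 with Khk and 0.91 with Hoga1, but 0.63 with Hao1, -0.02 with Agxt and -0.50 with Grhpr. The lowest r of any pair of the enzymes was -0.74, for Hao1 and Agxt. These are descriptions over 6 arrays in which same-numbered arrays deviate together. For each of Khk, Grhpr, Hao1, Agxt and Hoga1 the span between replicate numbers was larger than the size of the change with treatment. The span is the widest gap among 3 means of fewer arrays each. Noise alone would tend to make it the larger, so this comparison decides nothing.

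Around the 6 enzymes, 5 lists of related genes held 76 measured genes, 70 of which are not among the 6. The 70 include Pmp22, a myelin protein gene that was listed with the peroxisome genes but is not one of them. None of the 70 was called by limma, 3 had an unadjusted p under 0.05 (4.29%, against 5.66% of all genes), and 45 lay below 0. With the replicate block 0 were called and 5 had an unadjusted p under 0.05 (7.14%, against 9.13% of all genes). These 5 were Srr, Gpt2, Aqp9, Pex19 and Pex26. The changes of the 70 ran from -0.31 to 0.36 with a median of -0.03, close to the -0.02 of all genes. Of the 76 genes, 1 had a change above 0.5 in size, and it was Glyctk.

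**Figure D3:**
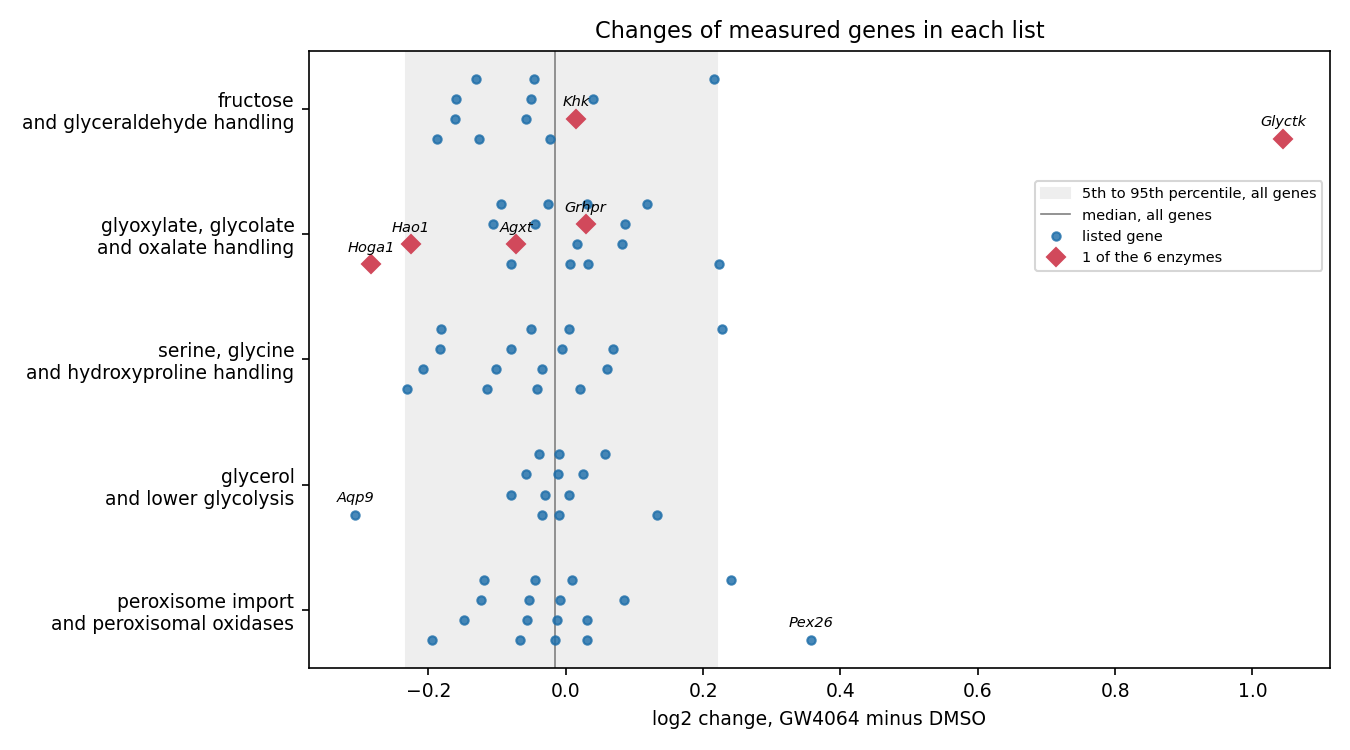
Log2 change between GW4064 and DMSO for each measured gene of 5 lists, with the 6 enzymes as red diamonds. The grey band spans the 5th to 95th percentile of all genes, -0.23 to 0.22, and Glyctk at 1.05 lies far to its right.

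Fructose and glyceraldehyde genes (13 measured of 16 listed) included 4 above 0, Glyctk among them, and 9 below. The list's median log2 change was -0.05. Apart from Glyctk, 0 had an unadjusted p under 0.05. Tkfc, the triokinase that phosphorylates glyceraldehyde and so competes with the route through glycerate, read 8.65, 8.81 and 8.04 with DMSO and 8.54, 8.71 and 8.09 with GW4064. It was named after its values were seen, because it shares a substrate branch with Glyctk. Its log2 change was -0.05 (SE 0.22, or 0.08 with the replicate block), and its pair differences were -0.11, -0.10 and 0.06. The smallest p values belonged to the fructose transporter gene Slc2a5 (0.22, SE 0.11), the aldehyde dehydrogenase gene Aldh2 (-0.16, SE 0.14) and the hexokinase gene Hk1 (-0.16, SE 0.14). Slc2a5 was low on the array scale, at 2.75 to 3.17.

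All 17 glyoxylate, glycolate and oxalate genes were measured, with 9 above 0, 8 below and a median of 0.01. None had an unadjusted p under 0.05, and with the replicate block 1 did, which was Hoga1. Besides the 4 enzymes above, the smallest p values were those of Slc26a6, an anion exchanger that carries oxalate (0.22, SE 0.14), Ldhb, a lactate dehydrogenase subunit (-0.11, SE 0.11), and Pgp, phosphoglycolate phosphatase (0.12, SE 0.12). None of these was called over all genes (limma adjusted p = 0.961, 0.998 and 0.998). Slc26a6 was higher in all 3 pairs, by 0.13, 0.41 and 0.13, as were 12.6% of all genes.

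Among serine, glycine and hydroxyproline genes (16 measured of 18) 11 lay below 0, with a median of -0.05. Srr, serine racemase, had an unadjusted p under 0.05 and was not called (log2 change 0.23, SE 0.10, limma adjusted p = 0.866). Its levels of 6.32, 6.24 and 6.41 with DMSO and 6.64, 6.53 and 6.47 with GW4064 did not overlap. Gcsh, the lipoyl carrier protein of the glycine cleavage system, had -0.23 (SE 0.12), and Shmt1, the cytosolic serine hydroxymethyltransferase, had -0.18 (SE 0.12). With the replicate block Gpt2, an alanine aminotransferase gene, also had an unadjusted p under 0.05. It had a log2 change of -0.21 (blocked SE 0.08) and was not called (limma adjusted p = 0.513 with the block).

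Glycerol and lower glycolysis genes handle the product of glycerate kinase and the related entry of glycerol. Of 15 listed, 13 were measured, 9 of them below 0, with a median of -0.01. Aqp9, the channel through which hepatocytes take up glycerol, was lower in all 3 pairs. It read 7.93, 7.85 and 8.04 with DMSO and 7.57, 7.47 and 7.86 with GW4064, with 1 GW4064 array inside the DMSO range. Its log2 change was -0.31 (SE 0.12, limma adjusted p = 0.858, or 0.388 with the replicate block). Pgam2, a phosphoglycerate mutase, had 0.13 (SE 0.11) and Bpgm, bisphosphoglycerate mutase, had -0.08 (SE 0.14). The sign of the Bpgm change turned without DMSO replicate 1 (0.03).

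Peroxisome genes were listed because Hao1 and mouse Agxt act in that organelle. Of 20 listed, 17 were measured, 11 below 0, with a median of -0.02. The 17 include Pmp22 (-0.15), which encodes a peripheral myelin protein and not a peroxisomal one. Pex26, which anchors the peroxisomal import ATPases, read 6.39, 6.48 and 6.22 with DMSO and 6.75, 6.75 and 6.67 with GW4064. The groups did not overlap, and its log2 change of 0.36 (SE 0.10) was not called (limma adjusted p = 0.660, or 0.309 with the block). Pex19, a receptor for peroxisomal membrane proteins, had 0.24 (SE 0.14), and Pex6, 1 of the import ATPases, had -0.12 (SE 0.10). With the block Pex19 had an unadjusted p under 0.05 and was not called (SE 0.08, limma adjusted p = 0.486). Over the 70 related genes, groups without overlap were found in 2 with GW4064 higher (Srr and Pex26) and 0 with it lower, against 4.58% and 6.19% of all genes.

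The 4 nearest named protein-coding genes on either side of Glyctk in RefSeq's order of GRCm38.p6 were all measured, and 0 were called by limma. Over all genes 0.0496% were called. None of the neighbours had an unadjusted p under 0.05 (5.66% of all genes did), and none did with the replicate block (9.13% did). At such shares, counts over so few genes say little. Wdr82, which follows Glyctk and encodes a subunit of histone methyltransferase complexes, read 7.89, 7.79 and 7.74 with DMSO and 7.93, 7.84 and 7.68 with GW4064. Its log2 change was 0.01 (SE 0.10). Beyond it came the phosphatase gene Ppm1m (-0.01), the actin-binding twinfilin gene Twf2 (-0.07) and Tlr9, a receptor for unmethylated DNA (0.08). On the other side were the collagen genes Col6a4 (-0.07), Col6a5 (-0.18) and Col6a6 (0.07), and Pik3r4, a lipid kinase subunit (-0.10). Tlr9 and the collagen genes were low on the array scale, at 2.34 to 4.36.

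**Figure D4:**
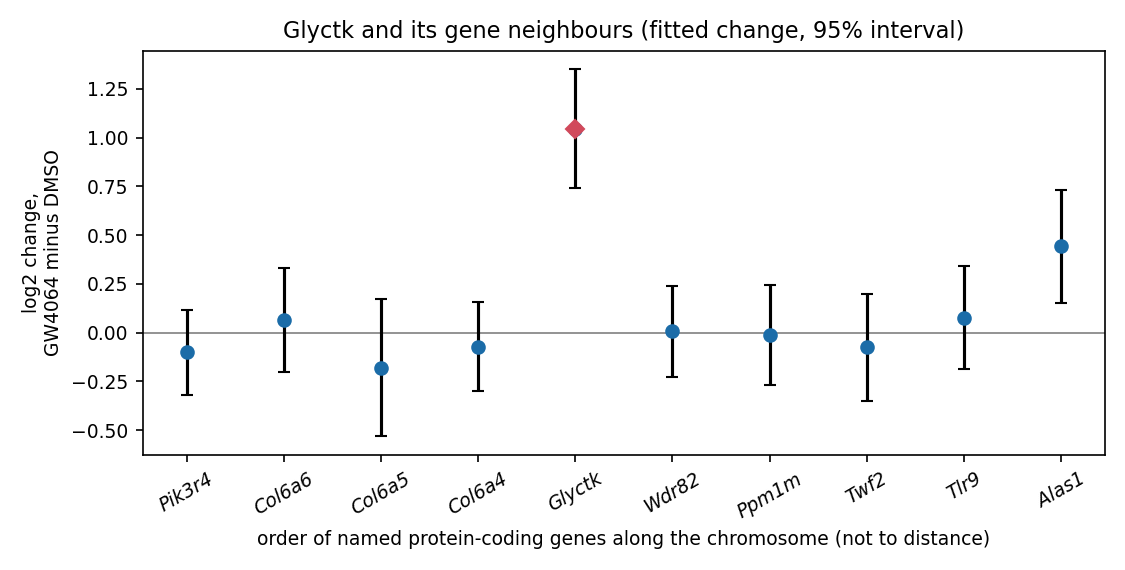
Limma log2 change with its 95% interval for Glyctk and its neighbours in chromosome order, spaced evenly and not by distance. Glyctk is at 1.05, the 8 nearest genes lie between -0.18 and 0.08, and Alas1 is at 0.44.

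Alas1, the first enzyme of heme synthesis, is the 5th named gene on the Wdr82 side. It lies outside the rule of 4 and was named because its values were known. Its log2 levels were 8.49, 8.79 and 8.59 with DMSO and 8.99, 9.30 and 8.92 with GW4064, without overlap. Such a gap, with GW4064 higher, was found in 4.58% of all genes. The log2 change was 0.44 (SE 0.13), and it was not called over all genes (limma adjusted p = 0.689, or 0.247 with the block).

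A further 2 probe sets are paired with Glyctk together with a second symbol, so neither can be read as Glyctk alone. The probe set shared with the long noncoding gene D030055H07Rik read 3.02, 2.64 and 2.61 with DMSO and 2.98, 2.86 and 2.61 with GW4064, with overlapping groups. The probe set shared with the microRNA gene Mir135a-1 was low on the array scale. It read 1.84, 1.84 and 1.71 with DMSO and 2.12, 2.06 and 1.91 with GW4064.

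The genes whose values over the 6 arrays were most like those of Glyctk were ranked by Pearson r among 4275 named genes with a log2 range of at least 0.5. The first 5 were Gclm (r = 0.994), Sik1 (0.989), Dus1l (0.985), Otud1 (0.983) and Slc35g1 (0.980). All arrays are shared, and the r of each gene holds the difference between treatments as well as that between replicate numbers. Gclm, a subunit of the ligase that starts glutathione synthesis, read 9.76, 9.75 and 9.57 with DMSO and 10.45, 10.44 and 10.22 with GW4064. Otud1, a deubiquitinase gene, read 8.75, 8.49 and 8.23 with DMSO and 9.56, 9.49 and 9.23 with GW4064. Sik1 encodes a salt-inducible kinase, Dus1l a dihydrouridine synthase and Slc35g1 a membrane carrier.

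**Figure D5:**
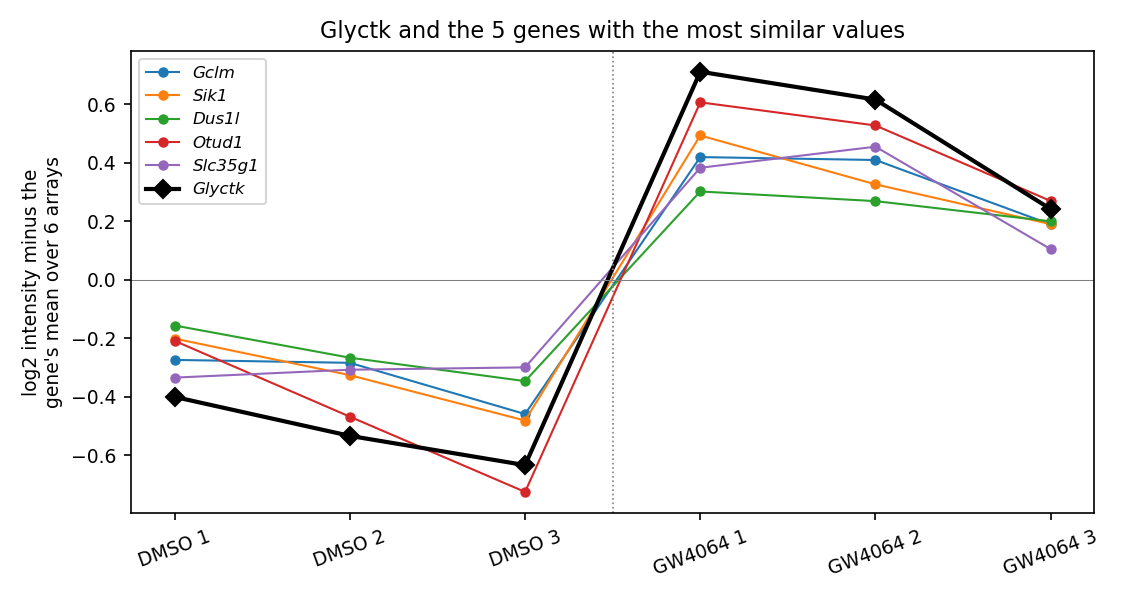
Log2 intensity minus each gene's mean over the 6 arrays, for Glyctk (black) and the 5 genes with the highest Pearson r, 0.980 to 0.994. All 6 genes lie below 0 on the DMSO arrays and above 0 on the GW4064 arrays.

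All 5 were chosen for their likeness to a gene that was higher with GW4064, and their differences are given without a test. On the log2 scale these were 0.68 for Gclm, 0.67 for Sik1, 0.51 for Dus1l, 0.93 for Otud1 and 0.63 for Slc35g1, each smaller than the 1.05 of Glyctk. Over the same arrays the r of Glyctk with the other enzymes, which were not ranked for it, was 0.30 with Khk, -0.02 with Grhpr, -0.21 with Agxt, -0.22 with Hoga1 and -0.37 with Hao1.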

How the data were processed

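The 6 arrays were 1-colour Affymetrix MoGene-2_0-st arrays, per the series design text. Each deposited value is a probe set's log2 intensity. The submitters' processing notes name RMA and Partek but no version, and the values' range set the log base. Of 41345 probe sets, 23521 had exactly 1 symbol, which gave 22180 genes, with the probe set of the highest mean kept for 1082 genes with several. Changes were fitted over all genes with limma 3.58.1 (lmFit and eBayes, R 4.3.3), adjusted by Benjamini-Hochberg, and called at an adjusted p under 0.05. The fit was tested on simulated data. Intervals are 95%. The F test of replicate number was added after the values were seen.

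The members and lists were chosen with earlier results of these data known. Named genes were the 6 enzymes and, of each list, those called or otherwise the 3 with the smallest p. The 4 neighbours per side and the 5 genes most like Glyctk were also named. Tkfc, Alas1, Gpt2 and Pmp22 fall outside this rule. The labels do not say that replicate numbers mark preparations. Deviations from group means correlated at 0.26, 0.34 and 0.45 in pairs 1, 2 and 3, above the 0.1 required. Blocked counts are therefore given for the main groups of genes, and blocked intervals for the enzymes set beside Glyctk. Other intervals and SEs are from the fit without the block unless the block is named. Alternatives were this block, another normalization (median centring or quantile), filters on dim genes, probe sets averaged per gene, trend and robust moderation, and each array or pair left out. Of the listed genes, 10 had no probe set of their own. The build behind the array annotation is not given in the sources used here, and GRCm38.p6 is that of the RefSeq tables. Precision is limited by the number of arrays.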

Additional observations from a re-analysis of the deposited data

Results flagged for a closer look

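The probe set paired with both Glyctk and Mir135a-1 entered no comparison, and its GW4064 arrays all lay above its DMSO arrays. The mean log2 difference was 0.23, from 1.80 ± 0.08 to 2.03 ± 0.10 (SD, n = 3 each), with 0.28, 0.22 and 0.21 in pairs 1, 2 and 3. Of the 1814 probe sets with several symbols, 4.74% showed such a gap. Its level is near the low end of the arrays, and which of the genes it reads cannot be told apart.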

How the results depend on the processing

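The log2 change of Glyctk moved by less than the SD of its pair differences (0.15) in all 16 alternatives. It ran from 0.95 to 1.19 with arrays or pairs left out. It was 1.07 with quantile normalization and 1.05 with median centring. For a gene with 1 probe set, the replicate block, the filters, averaged probe sets, and trend and robust moderation cannot move the change. Glyctk stayed at 1.05 in those alternatives, which therefore say nothing about its stability. The count of fructose and glyceraldehyde genes past the threshold was 0, and 1 with the replicate block, with trend and robust moderation and without GW4064 replicate 3 (0 to 1 with arrays or pairs left out). That 1 is Glyctk, which was picked for its rise, so the count is no test of it. In the other 4 lists it was 0 in all 16. Hao1 ranged from -0.386 to -0.088 and Hoga1 from -0.478 to -0.110 with arrays or pairs left out. Both kept their sign in all 16, though the alternatives that could not move Glyctk could not move them either. Grhpr ranged from -0.098 to 0.122, Agxt from -0.205 to 0.077 and Khk from -0.160 to 0.196 with arrays or pairs left out. None of these 5 was called in any of the 16. Genes raised numbered 2 to 5 with arrays or pairs left out, against 11. Genes lowered numbered 0 to 1 there (1 without GW4064 replicate 2), 2 with the replicate block, 1 without genes under the median level and 3 with trend and robust moderation. Fewer arrays were fitted where any were left out, and for the other settings the cause was not tested. The alternatives were not compared for Tkfc, Gpt2, Pmp22 and the cell type markers. Of 29 other named genes, 23 kept their sign, some with a smaller size. Aldh2 (-0.159) was -0.035 with probe sets averaged, Hk1 (-0.162) was -0.004 without GW4064 replicate 2 and Slc26a6 (0.223) was 0.062 without DMSO replicate 2. The rest ranged across 0 with arrays left out: Bpgm (-0.186 to 0.034), Col6a6 (-0.093 to 0.146), Col6a4 (-0.173 to 0.009), Wdr82 (-0.052 to 0.075), Ppm1m (-0.102 to 0.049, and 0.01 with quantile normalization) and Twf2 (-0.156 to 0.022). Leaving aside Glyctk and the 5 genes chosen for likeness to it, the block changed no named gene's call. No array has a detection value, so low levels have no measured floor.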
